A study of Mus musculus with 8 samples.

Results

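Broad H3K27ac peaks, those at least 12.5 kb wide in the deposited peak table, numbered 596 of 22731. The rule uses width alone and neither level nor change between genotypes, although the width limit was set with earlier results of these data known. Of the 596, 68 lay on chromosome 5 and 528 on the other chromosomes. The 2 sets are described apart, because peaks along chromosome 5 as a whole were lower in the knockout. The libraries came from mouse colon cancer organoids of the genotype labelled AKP, with 3 control libraries (AKP) and 3 Gata6 knockout libraries (Gata6KO_AKP). Both groups share the AKP genotype and the label C57Bl6 for recipient mice, and the labels name neither the alleles behind AKP, nor the way Gata6 was deleted, nor whether a line was 1 clone. An H3K4me3 and an IgG library of control organoids complete the 8 samples and were not analysed here, so no background was subtracted.

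Acetylation of lysine 27 on histone H3 marks active promoters and enhancers, and CUT&RUN reads it by letting an antibody direct a nuclease that releases the marked DNA for sequencing. Most such peaks are short, while a small class forms long acetylated domains. Domains of this kind, called super-enhancers or stretch enhancers when they hold clusters of enhancers, are known for lying near genes of cell identity, although long active genes and dense promoter regions can form them too. GATA6 is a zinc finger protein that binds enhancers and controls transcription in endodermal tissues, the gut lining among them. Comparing knockout with control organoids asks which acetylated domains differ when it is lost. Genes were not assigned to the domains, since peak coordinates are those of mm9 and the available gene positions those of GRCm38.p6, so each domain is named by its mm9 position. For the same reason no gene-level check of the labels, no cell type marker and no sequence is given.

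The libraries held 5141856 to 7026388 reads in peaks, and the median broad peak held 1219 to 1666 reads per library. The lowest count of any broad peak in any library was 270, and each of the 596 passed the filter on low counts. Levels (CPM) are counts scaled to the reads in peaks of a library, with TMM factors, and density is CPM per kb of peak. In a pool of cells, fewer acetylated cells and less acetylation per cell cannot be told apart. DNA copy number in the organoids was not tested, so levels on chromosome 5 or elsewhere are not given per copy. The labels do not say that the 3 libraries of a group came from separate cultures or mice. The p-values here thus rest on variation among libraries that could be technical. In edgeR that variation is estimated largely from all peaks together, so standard errors follow the level of a peak more than its own spread. Named peaks at 221 CPM on chromosome 5 and 225 CPM on chromosome 17 had standard errors of 0.063 and 0.062 for the log2 fold change.

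The broad peaks covered 11.5 Mb, or 13.6% of the 84.3 Mb under all peaks, although they were 2.62% of the peaks. Their median width was 16402 bp, 170 reached 20 kb, 44 reached 30 kb and 10 reached 50 kb, and the widest measured 100737 bp. Their density averaged over the 6 libraries ranged from 7.35 to 29.3 CPM per kb, with a median of 13.8 against 10.7 over all peaks. Most of them, 89.9%, lay above the median density of all peaks, yet only 28.2% lay among the densest 10% of all peaks. The highest density of the table, 447 CPM per kb, belonged to a narrower peak. Among them, density rose only weakly with width (Spearman's rho = 0.22 over 596 peaks that share the same libraries, a description).

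Chromosome 8 had the largest share of broad peaks, 3.99% of its 1328 peaks, followed by chromosome 5 with 3.65% of 1863 and chromosome 11 with 3.48% of 1723. On chromosomes 3, 13, 18 and 16 the share was 0.806% to 1.18%. None of the 136 peaks on chromosome X was broad. The 3 members just above the width limit, of 12500, 12504 and 12508 bp, had densities of 17.8, 10.4 and 14.9 CPM per kb. The 3 peaks just below it, of 12499, 12489 and 12488 bp, had 12.0, 9.86 and 11.6 CPM per kb. Their densities overlapped across the limit.

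**Figure D1:**
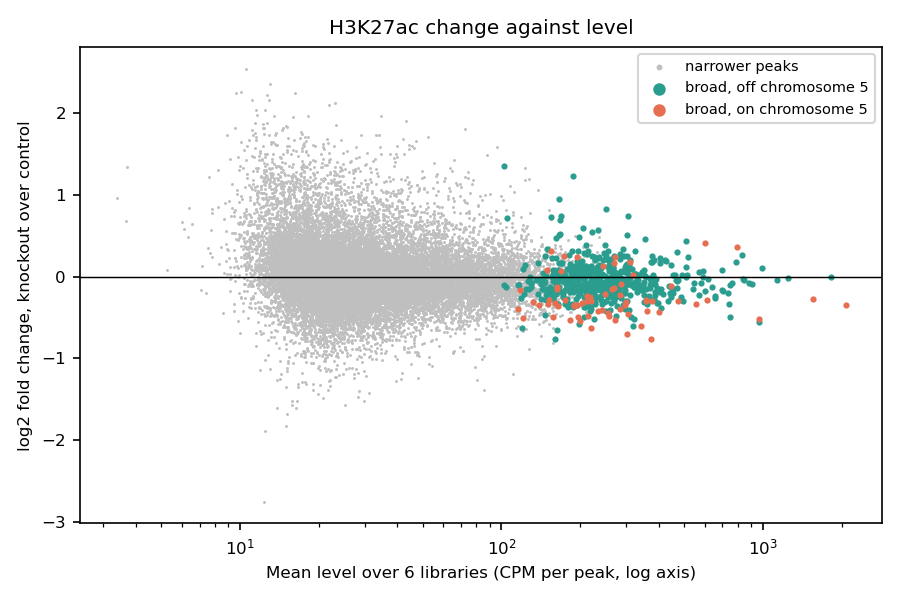
Each point is 1 peak. The horizontal axis is the mean level over 6 libraries in CPM per peak on a log axis, and the vertical axis is the log2 fold change of knockout over control. Broad peaks lie at the high end of the level axis, where the spread of fold changes is narrow, and those on chromosome 5 lie mostly below 0.

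Off chromosome 5, more broad peaks lost acetylation in the knockout than gained it, and most changes were small. Of 528 broad peaks, 149 (28.2%) were lower, 73 (13.8%) were higher and 306 did not pass the test (edgeR's quasi-likelihood test on all 22731 peaks, Benjamini-Hochberg adjusted p under 0.05). Over all peaks off chromosome 5, 8.1% were called lower and 12.3% higher. The median log2 fold change was -0.06 over the broad peaks and 0.01 over all peaks off chromosome 5. The groups did not overlap, with all 3 knockout libraries on one side of all 3 controls, at 188 broad peaks in the lower direction and at 87 in the higher, or 52.1% together. Over all peaks off chromosome 5 the shares were 13.8% and 18.5%, or 32.3% together. Those peaks held a median of 162 reads per library against 1358 for the broad ones, so the shares do not compare like with like. Off chromosome 5, 177 narrower peaks had read counts similar to the broad ones, a match added after the data were seen. The groups did not overlap at 50.3% of these 177, and 42.4% were called in either direction, against 42.0% of the broad peaks. Only 14 of the 528 changed by 1.5-fold or more in the estimate, 10 higher (1.89%) and 4 lower (0.758%). Among all peaks off chromosome 5 such changes were seen at 8.03% and 2.46%, and among the 177 of similar read count at 1 peak (0.565%), which was lower.

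The lean towards losses depended on how the libraries were scaled. With trended offsets, where the scaling may vary with the mean count, 96 broad peaks off chromosome 5 were called lower and 108 higher, against 7.76% lower and 11.9% higher over all peaks off chromosome 5. The higher share of the calls thus went from 32.9% to 52.9%, and the median log2 fold change from -0.06 to -0.0066. All 73 higher calls and 96 of the 149 lower calls were made under both scalings. These 96 were also all of the lower calls that trended offsets gave. The trend was fitted over all peaks, and only 177 narrower peaks off chromosome 5 had read counts similar to the broad ones. It may therefore take up part of a change that the broad peaks share, which was not tested.

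Wider members were called lower more often. Between 12.5 and 15 kb, 36 of 187 broad peaks off chromosome 5 were lower (19.3%), and between 15 and 20 kb 45 of 196 (23.0%). The share was 45.9% among the 109 peaks of 20 to 30 kb and 50% among the 36 of 30 kb or more, while the shares called higher stayed between 11.0% and 16.7%. Wider peaks also hold more reads, and the median standard error of the log2 fold change fell from 0.068 in the first class to 0.038 in the last, so smaller changes could be called there. The class medians were -0.03, -0.06, -0.12 and -0.09. With trended offsets they were 0.0054, -0.00012, -0.06 and 0.0037, and only the class of 20 to 30 kb kept more lower calls (26.6%) than higher (14.7%).

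**Figure D2:**
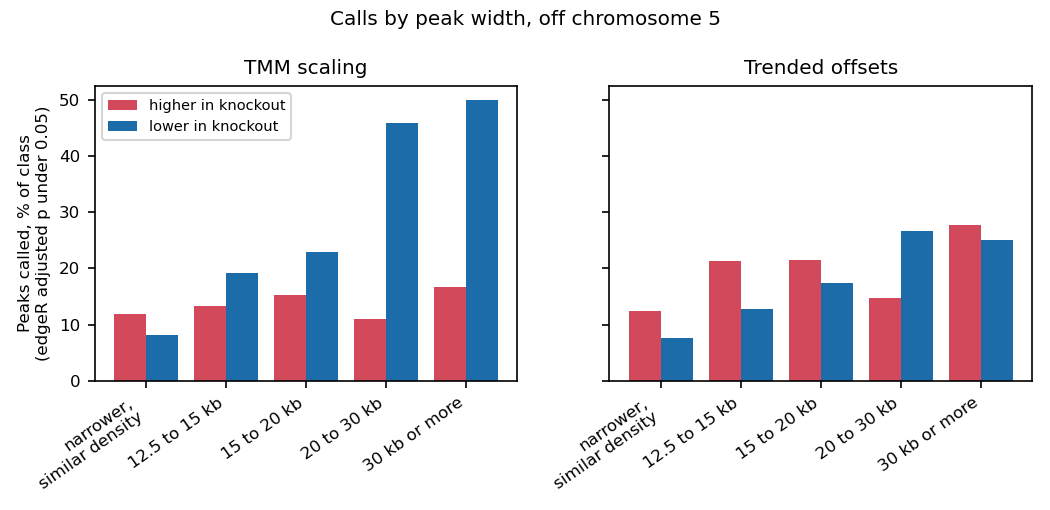
Bars give the percentage of peaks off chromosome 5 called higher or lower in the knockout, for narrower peaks of similar density and for 4 width classes of broad peaks, with TMM scaling on the left and trended offsets on the right. Lower calls grow from 19.3% to 50% with width under TMM scaling, whereas with trended offsets they exceed higher calls in the class of 20 to 30 kb alone.

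The share of reads that falls in broad peaks needs no scaling between libraries. Off chromosome 5 it was 16.5%, 16.4% and 16.7% of the reads in peaks for the controls (replicates 1, 2 and 3), and 15.7%, 15.8% and 15.9% for the knockouts. The knockout libraries thus all lay below the controls, with means of 15.8% ± 0.0975 against 16.5% ± 0.115 (SD, n = 3 each). The difference of -0.716 percentage points, a fall of 4.33% of the control value, gave p = 0.1 in an exact two-sided permutation test, the smallest that 3 against 3 allows. Averaged over all bases of these peaks, the density was 14.8 ± 0.149 CPM per kb in the controls and fell to 14.3 ± 0.0489 in the knockouts (SD, n = 3 each). A share falls when the rest rises, so a loss in broad peaks and a gain in narrower ones cannot be told apart by it.

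Narrower peaks of similar density had more higher than lower calls, a direction that depended on how the match was made. They were taken as the 9262 peaks off chromosome 5 under 12.5 kb whose density over the 6 libraries lay between the 10th and 90th percentiles of the broad peaks, 10.7 to 18.6 CPM per kb. Of these, 1108 (12.0%) were called higher and 754 (8.14%) lower, with a median log2 fold change of 0.0041. The median was -0.0048 with trended offsets and -0.015 with chromosome 5 left out of the fit. With density matched on the control libraries only, the split turned round, to 533 higher (6.08%) and 1033 lower (11.8%) of 8767, with a median of -0.073. The 9262 peaks held a median of 199 reads per library against 1358 for the broad peaks off chromosome 5, and the median standard error was 0.15 against 0.062, so the shares called do not compare like with like. Within a group, the level of the median peak varied by 4.31% (control) and 4.09% (knockout) between libraries for broad peaks, and by 10.1% and 10.3% for the narrower ones (coefficient of variation). Changes of 1.5-fold or more were estimated at 7.28% of the narrower peaks and 2.65% of the broad ones. Among the 177 narrower peaks with read counts similar to the broad ones, the share was 0.565%.

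Set against these narrower peaks within each library, broad peaks were lower in the knockout. The log2 ratio of reads in broad peaks to reads in the narrower peaks was -1.49, -1.50 and -1.47 for control replicates 1, 2 and 3 against -1.57, -1.56 and -1.54 for the knockouts. All knockout libraries lay below all controls, by 0.07 on the log2 scale between means (exact two-sided permutation p = 0.1, the smallest possible). The ratio depended on how similar density was defined. With density taken from control libraries only, the difference was 0.0012 and p = 0.8 in the same exact test. Why the result changed with the match was not tested. Against the 177 narrower peaks of similar read count, a match added after the data were seen, the difference was -0.06 with the groups apart (exact permutation p = 0.1). The median width of those 177 peaks was 10668 bp, and they were denser, at 18.1 CPM per kb. Of them 22.0% were called higher and 20.3% lower, with a median log2 fold change of -0.0032, or 0.05 with trended offsets, where the broad peaks had -0.0066.

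**Figure D3:**
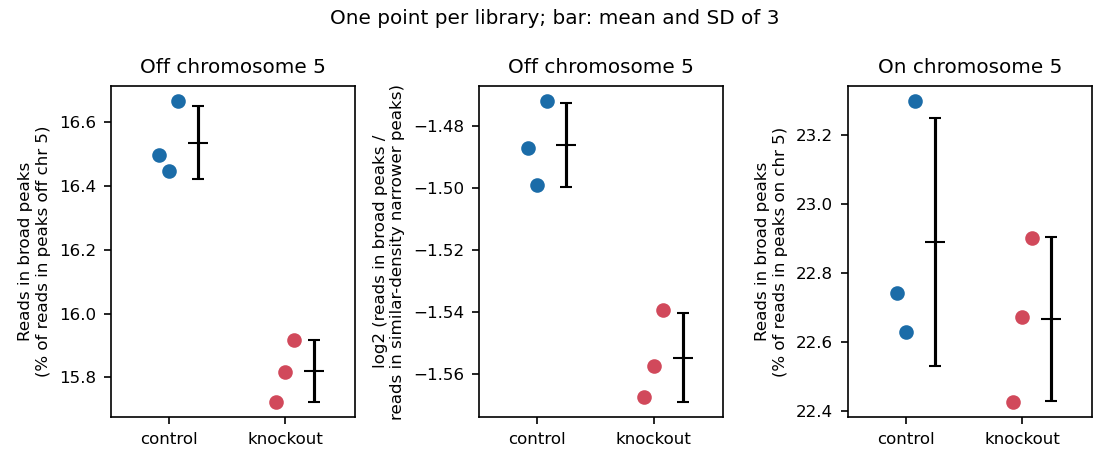
Each point is 1 library, and the bars give the mean and SD of 3. The left panel shows the percentage of reads in peaks off chromosome 5 that fall in broad peaks, the middle panel the log2 ratio of reads in broad to reads in narrower peaks of similar density, and the right panel the percentage on chromosome 5. Knockout libraries lie below all controls in the first 2 panels and overlap them in the third.

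The change also differed with density within the class. When the broad peaks off chromosome 5 were cut into 5 equal parts by density, the median log2 fold change went from -0.11 in the sparsest (7.35 to 11.7 CPM per kb) through -0.08, -0.07 and -0.03 to -0.01 in the densest (16.7 to 29.3 CPM per kb). Narrower peaks in the same 5 ranges of density had medians of 0.0021, 0.00061, 0.01, 0.03 and 0.03, so the broad peaks were lower in each range. With trended offsets the broad peaks were lower in the 3 sparser ranges and higher in the 2 denser ones, where their medians were 0.03 and 0.06 against 0.02 and 0.04. Across the 528 peaks the log2 fold change had a Spearman's rho of 0.15 with density and -0.16 with width, and 0.20 and -0.10 with trended offsets. These correlations are descriptions over peaks that share libraries, and density, unlike width, shares reads with the fold change.

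The order of the domains by density changed more between genotypes than between replicates. Log2 density over the 528 peaks had a Pearson's r of 0.938 to 0.950 for library pairs within a genotype and of 0.705 to 0.757 for pairs that crossed genotypes, as a description across peaks. Of the 50 of these peaks that were densest in control, 27 were also among the 50 densest in the knockout. Of the 528, 50 in control and 80 in knockout libraries lay below the median density of all peaks.

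The largest gain was on chromosome 9 from 45135951 to 45149842, a domain of 13.9 kb. Its density was 3.98, 3.79 and 4.60 CPM per kb in the controls, replicates 1, 2 and 3, and 9.95, 10.9 and 10.9 in the knockouts. In control it was the sparsest of the 596 broad peaks, and only 0.633% of all peaks were sparser there, whereas in the knockout 48.0% of all peaks were sparser. The fold change was 2.56, with a log2 value of 1.36 ± 0.09 (SE) and an adjusted p of 2.94e-45 by edgeR's quasi-likelihood test. Both narrower peaks within 12.5 kb of it rose as well, by 1.33 and 1.96 on the log2 scale.

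On chromosome 12, the domain from 109622035 to 109636708 had 7.02, 7.78 and 8.06 CPM per kb in control and 18.7, 16.6 and 18.6 in knockout libraries, a 2.35-fold rise (adjusted p = 1.78e-67, edgeR). The lowest knockout value was more than double the highest control value. All 3 of its neighbouring narrower peaks rose. The gain did not extend to other broad peaks of that part of the chromosome: those from 109481549 to 109495251 and from 109916641 to 109941249 were called lower, with log2 fold changes of -0.29 and -0.16. A further gain on chromosome 12, from 108987931 to 109001510, went from 79.4 ± 1.67 to 130 ± 9.29 CPM (SD, n = 3 each), 1.64-fold. It was among the 3 sparsest broad peaks.

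The domain on chromosome 1 from 94739234 to 94754267 rose 1.93-fold, from 8.08, 6.96 and 7.62 CPM per kb in control to 14.1, 16.1 and 13.5 in knockout libraries. That on chromosome 7 from 136805615 to 136822373 rose 1.78-fold, from 10.5, 11.0 and 10.9 to 19.2, 19.3 and 19.2 CPM per kb. Its libraries agreed closely within each group, and each of its 5 narrower neighbours was called higher too. Chromosome 8 held 3 of the 10 strongest gains. A pair separated by less than 1 kb, from 91087661 to 91101183 and from 91101574 to 91116141, rose 1.68-fold and 1.66-fold, and the domain from 97194771 to 97211055 rose 1.67-fold, from 227 ± 12.7 to 379.8 ± 12.0 CPM (SD, n = 3 each). The last had no other peak within 12.5 kb.

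On chromosome 2, a gain lay beside a broad peak that did not pass the test. The domain from 35507600 to 35521157 rose 1.61-fold, from 9.44, 8.70 and 10.2 CPM per kb in control to 15.7, 14.7 and 15.4 in knockout libraries. The next broad peak, from 35522786 to 35585643, is 62858 bp wide and the fourth in level of all members. It had 19.8, 19.6 and 20.3 CPM per kb in control and 19.97, 19.4 and 19.9 in knockout libraries, so the groups overlapped (log2 fold change -0.01 ± 0.03 SE; adjusted p = 0.85, edgeR). With trended offsets its estimate was 0.10, with an adjusted p of 0.00543 (edgeR). The tenth of these gains, on chromosome 4 from 140153789 to 140169093, was 1.51-fold. For all 10, the 3 knockout libraries lay above the 3 controls, which the choice of the named peaks required, and the largest adjusted p was 1.58e-13 (edgeR).

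**Figure D4:**
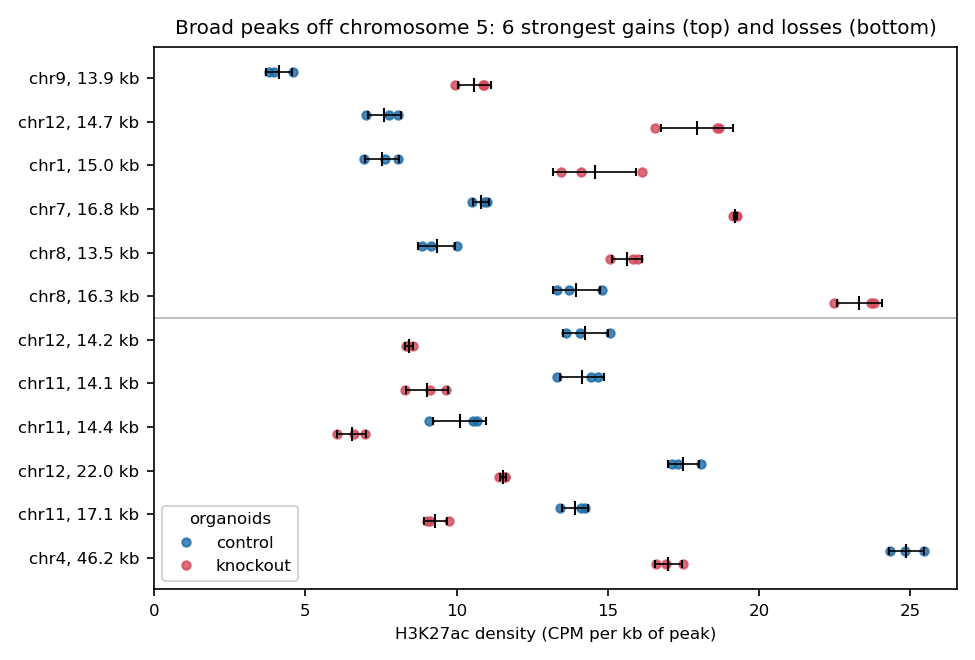
Points give the H3K27ac density in CPM per kb of peak in each of the 3 control and 3 knockout libraries, with the mean and SD as black marks, for the 6 strongest gains and the 6 strongest losses among broad peaks off chromosome 5. The groups do not overlap in any of the 12, by the rule that chose them. The gain on chromosome 9 starts from 3.79 to 4.60 CPM per kb in control, below every other value shown.

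Losses in single domains were smaller than the largest gains. The strongest off chromosome 5 was on chromosome 12 from 103570509 to 103584686, with 15.1, 13.6 and 14.1 CPM per kb in control and 8.57, 8.39 and 8.32 in knockout libraries. This was a 1.69-fold fall, with a log2 fold change of -0.76 ± 0.07 (SE) and an adjusted p of 1.16e-22 (edgeR). Its neighbour from 103555601 to 103569546 fell 1.41-fold. Further along, 3 more broad peaks fell: from 103814062 to 103836064 (1.52-fold, 385 ± 11.0 to 254 ± 2.34 CPM, SD, n = 3 each), from 103837252 to 103867179 (log2 fold change -0.39) and from 103910927 to 103926044 (-0.21). All 5 broad peaks of this stretch were therefore called lower.

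Chromosome 11 held 4 of the 10 strongest losses. The domain from 3800844 to 3814964 fell 1.57-fold, from 14.4, 13.3 and 14.7 CPM per kb to 9.12, 8.30 and 9.65. That from 3265239 to 3282333 fell 1.496-fold and that from 114562798 to 114577168 fell 1.55-fold. The fourth, from 117135712 to 117155155, fell 1.43-fold. It lies beside a peak of 55.8 kb from 117163125 to 117218961 whose log2 fold change was -0.49 (adjusted p = 3.01e-37, edgeR).

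The widest of the 10 named losses, 46236 bp on chromosome 4 from 151594814 to 151641049, went from 24.3, 24.8 and 25.5 CPM per kb in control to 16.9, 17.5 and 16.6 in knockout libraries. Its log2 fold change was -0.55 ± 0.03 (SE), or 1.46-fold lower, and 3 of its 4 narrower neighbours were called lower. On chromosome 17 from 87729081 to 87746983, all 3 control libraries had 14.8 to 14.9 CPM per kb and all 3 knockout libraries 10.3, a 1.44-fold fall with almost no spread within groups. The remaining loss, on chromosome 15 from 101155812 to 101170844, was 1.41-fold, and its 3 narrower neighbours fell by 0.82 to 0.93 on the log2 scale, more than the domain itself. For the 10 losses the largest adjusted p was 4.89e-12 (edgeR).

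Among the 5 widest broad peaks, those off chromosome 5 did not pass the test. The peak of 95585 bp on chromosome 4 from 106625328 to 106720912 had 19.2, 18.9 and 19.3 CPM per kb in control and 19.4, 18.7 and 19.0 in knockout libraries, and the groups overlapped (log2 fold change -0.0095 ± 0.02 SE; adjusted p = 0.844, edgeR). With trended offsets its estimate was 0.12 (adjusted p = 6.64e-05, edgeR). The peak of 67678 bp on chromosome 4 from 117886016 to 117953693 had a log2 fold change of -0.04 ± 0.03. The densest broad peak, on chromosome 9 from 21249486 to 21262206, had 30.5, 30.2 and 29.5 CPM per kb in control and 29.2, 27.6 and 28.9 in knockout libraries. Its control libraries all lay above the knockout libraries, but the log2 fold change of -0.07 did not pass the test (adjusted p = 0.311, edgeR). The second sparsest, on chromosome 9 from 107984505 to 107997801, did not pass either, with 106 ± 6.17 CPM for the controls against 98.8 ± 8.39 for the knockouts (SD, n = 3 each).

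Most narrower peaks next to a called broad peak did not pass the test, and those that passed were mostly called in its direction. Off chromosome 5, 157 narrower peaks lay within 12.5 kb of the 73 broad peaks called higher, and 49 of them (31.2%) were called higher and 4 (2.55%) lower, with a median log2 fold change of 0.24 against 0.25 for the broad peaks. Around the 149 broad peaks called lower there were 297 narrower peaks, of which 77 (25.9%) were called lower and 2 (0.673%) higher. Their median was -0.16, against -0.25 for the broad peaks. Next to broad peaks that did not pass the test, 6.39% of 735 narrower peaks were higher and 6.26% lower, both under the shares over all peaks off chromosome 5 of 12.3% and 8.1%.

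No pair of broad peaks within 12.5 kb of one another was called in opposite directions. Of 75 such pairs off chromosome 5, 19 had both members lower, 6 had both higher, 29 had 1 member called and 21 had none. On chromosome 5, 9 of 11 pairs had both members called in the same direction, 6 lower and 3 higher. Of all broad peaks, 28.2% were called lower and 13.8% higher off chromosome 5, and 75% and 11.8% on it. Whether neighbours shared a direction more often than these shares give was not tested. Over longer distances the direction could differ. When broad peaks were grouped with at most 100 kb between neighbours, a distance chosen after the values were seen, 37 groups of 3 or more lay off chromosome 5. In 6 of these groups every member was called lower, in none was every member called higher, 11 had no call, and 5 held both directions. The 6 were the groups on chromosome 12 from 103814062, on chromosome 17 from 87687470, on chromosome 7 from 30175157 and from 53292836, on chromosome 10 from 75106264 and on chromosome 11 from 59945600. Their summed levels in the knockout were 0.756, 0.793, 0.835, 0.849, 0.888 and 0.892 times the control sums. The group with the most members off chromosome 5, 8 domains on chromosome 8 from 119635032 to 119983351, held 3 higher and 1 lower.

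On chromosome 5, nearly all broad peaks differed. Of 68, 51 (75%) were called lower and 8 (11.8%) higher, and 9 did not pass the test (edgeR, adjusted p under 0.05). Over all 1863 peaks of chromosome 5, 33.8% were called lower and 4.46% higher. The median standard error was 0.060 for the broad peaks, with a median of 1435 reads per library. It was 0.16 for all peaks of the chromosome, with 182 reads. Smaller changes could thus be called at broad peaks, and shares called or not overlapping do not compare like with like. The median density of the broad peaks there was 14.98, 14.9 and 15.4 CPM per kb for control replicates 1, 2 and 3, with 11.9, 12.3 and 12.1 for the knockouts, so the groups did not overlap. As a median over these peaks, the log2 fold change was -0.31, against -0.26 over all peaks of the chromosome and -0.24 over its 902 narrower peaks of similar density. The share of broad peaks below 0 was 82.4%, and that of narrower peaks 78.8%. The groups did not overlap at 58 of the 68 (85.3%), with the knockout lower at 50 and higher at 8, against 43.3% and 6.66% of all peaks of the chromosome. A change of 1.5-fold or more was estimated at 4 broad peaks, all lower, where 11.9% of all chromosome 5 peaks were that much lower and 2.63% higher. With trended offsets 49 broad peaks were lower and 9 higher, against 33.3% and 4.08%.

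Within chromosome 5, the part of the reads held by broad peaks did not separate the groups. It was 22.7%, 22.6% and 23.3% in control and 22.4%, 22.7% and 22.9% in knockout libraries, and the difference of -0.224 percentage points gave p = 0.5 in the exact two-sided permutation test. The difference varied with the libraries used: it was -0.0186 without control replicate 3, -0.103 without knockout replicate 1, -0.341 without knockout replicate 3 and -0.355 without control replicate 2. When the median change of all chromosome 5 peaks was removed, 19 broad peaks remained lower (27.9%) and 14 were higher (20.6%), against 8.7% and 11.4% over all peaks of the chromosome, and their median log2 fold change was -0.05. All 8 higher calls and 19 of the 51 lower calls were made both ways.

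The strongest loss on chromosome 5 spanned 112707950 to 112737820. This domain of 29871 bp had 15.7, 15.2 and 16.0 CPM per kb in control and 9.26, 9.61 and 8.78 in knockout libraries, a 1.70-fold fall. Its log2 fold change was -0.77 ± 0.05 (SE), and -0.51 with the shift of the chromosome removed (adjusted p = 1.92e-21, edgeR). The next 3 were domains spanning 140649662 to 140673009 (1.63-fold lower), 149162449 to 149179131 (1.54-fold lower) and 140694507 to 140718998 (1.52-fold lower). With the shift removed their log2 fold changes were -0.45, -0.37 and -0.34, with a largest adjusted p of 2.21e-07 (edgeR).

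The widest of all peaks, 100737 bp on chromosome 5 from 125488613 to 125589349, also had the highest level. It went from 22.6, 22.8 and 23.7 CPM per kb in control to 17.8, 18.2 and 18.3 in knockout libraries, a log2 fold change of -0.35 ± 0.02 (SE). With the shift of the chromosome removed, -0.09 was left (adjusted p = 0.0012, edgeR). The peak of 80898 bp from 140503507 to 140584404 had -0.27, and -0.02 with the shift removed (adjusted p = 0.764, edgeR), so its call was not kept. That of 69039 bp from 120581320 to 120650358 had -0.52, and -0.26 with the shift removed. The dense peak from 33075792 to 33092064, at 27.3 CPM per kb, was called lower at -0.12 (adjusted p = 0.0445, edgeR) and higher at 0.14 with the shift removed (adjusted p = 0.017, edgeR). Its call was also lost with total counts, with trended offsets and when control replicate 2, control replicate 3, knockout replicate 1 or knockout replicate 2 was left out (adjusted p of 0.0722, 0.551, 0.103, 0.319, 0.158 and 0.157, edgeR).

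One stretch of chromosome 5 went against the rest. Between 36359913 and 36730733, 9 broad peaks lay within 371 kb, and 7 of them were called higher and none lower. Their summed level was 2273, 2229.9 and 2313 CPM for control replicates 1, 2 and 3 against 2655, 2711 and 2725 for the knockouts, so that the groups did not overlap and the knockout held 1.19 times the control level. With the shift of the chromosome removed, all 9 were called higher, by 0.33 to 0.62 on the log2 scale. The highest member, from 36698305 to 36730733, went from 21.1, 21.3 and 22.0 CPM per kb to 27.1, 27.1 and 28.4, a 1.28-fold rise with an adjusted p of 2.88e-21 (edgeR). Broad peaks on either side were lower: the one from 35895704 to 35913341 had a log2 fold change of -0.54 and the one from 37501294 to 37516451 had -0.25. The stretch was singled out after its values had been seen. The eighth higher call of the chromosome was at 109122794 to 109146236, one of the 3 densest broad peaks, which rose 1.33-fold from 21.3, 22.0 and 22.3 CPM per kb in control to 29.4, 28.6 and 29.6 in knockout libraries.

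**Figure D5:**
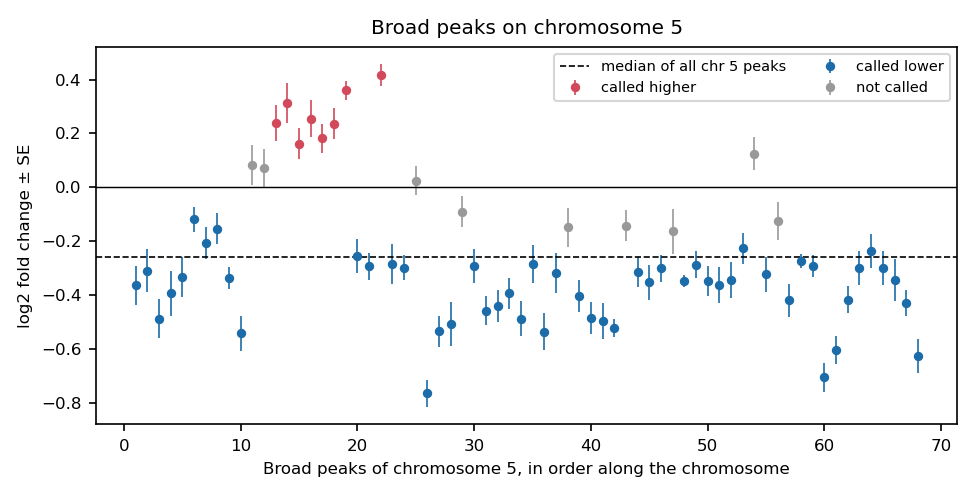
The 68 broad peaks of chromosome 5 are shown in their order along the chromosome, with the log2 fold change of knockout over control and its standard error. The dashed line is the median of all chromosome 5 peaks, -0.26. Of the 8 peaks called higher, 7 lie in the stretch of 9 broad peaks described above, and most peaks outside it lie near or below the dashed line.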

How the data were processed

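H3K27ac CUT&RUN was measured in 3 control and 3 Gata6 knockout libraries. For 22731 peaks in mm9 coordinates the authors deposited a table of raw, unscaled counts. The submitters' processing notes name Bowtie, Picard, SAMtools, SEACR and bedtools, with no versions or roles. How peaks of different libraries were merged, and whether mates were counted apart, is not given in the sources used here. Between 82.8% and 88.9% of the counts in a library were even numbers. If both mates of a pair were counted, errors could be understated, so halved counts were tried. With them, 73 broad peaks off chromosome 5 were called higher and 149 lower, and 8 and 52 on it. All 281 calls of the main fit were kept. Halving leaves the ratios between libraries nearly as they were, and the variation is estimated anew from them. The kept calls thus say little on whether errors were understated.

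The members, width limit and lists were chosen with earlier results of these data known. All peaks were fitted together with edgeR 4.0.16 in R 4.3.3 (TMM, filterByExpr, quasi-likelihood test, Benjamini-Hochberg adjustment, threshold 0.05). Summaries and exact permutation tests used Python 3.11.15 with SciPy 1.17.1, and the fitting script was tested on simulated data. The libraries held 5141856 to 7026388 reads in peaks, and the common coefficient of variation was 11.4%. Named regions were the 10 strongest calls in each direction off chromosome 5 with the largest log2 fold change and the 4 on it farthest from its median, all with groups that did not overlap, the 5 widest, the 5 of highest level, the 3 of highest and of lowest density, and the 3 on either side of the width limit. Other regions, named beside these, were chosen after their values were seen.

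Same-numbered libraries did not deviate together in every pair, so the numbers were not taken as pairs. Alternatives covered scaling, DESeq2 1.42.0, filters, thresholds, the definitions of width and of similar density, a replicate block and leaving out each library. Gene names, planned gene lists and sequences were not used here, because the tables at hand are of another build.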

Additional observations from a re-analysis of the deposited data

How the results depend on the processing

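With trended offsets, the share of broad peaks off chromosome 5 called lower was 18.2% and their median log2 fold change -0.0066. With chromosome 5 left out of the fit that median was -0.080, and with a limit of 20 kb it was -0.11 with 46.9% lower. On chromosome 5 the median was -0.25 with trended offsets and -0.047 with the shift removed, where 20.6% were higher and 27.9% lower. The median of narrower peaks of similar density, 0.0041, was 0.014 with total counts, 0.013 against 20 kb, 0.012 with a density range from the 25th to the 75th percentile, and changed sign with trended offsets (-0.0048), chromosome 5 left out (-0.015), density from control only (-0.073) and the count match (-0.0032). Their lower calls were 4.89% at an adjusted p under 0.01, with control-only density 6.08% were higher and 11.8% lower, and the count match gave 22.0% higher and 20.3% lower. The log2 ratio to them turned from -0.07 to 0.0012 with control-only density. The cause of these shifts was not tested. The estimate changed sign under some setting at 8 named regions, and passed the test with the changed sign at 3: on chromosome 4 from 106625328 (0.12) and chromosome 2 from 35522786 (0.10) with trended offsets, and on chromosome 5 from 33075792 (0.14) with the shift removed. The 28 calls named for their change, or on chromosome 5 for distance from its median, kept direction and call in all 392 values computed. They were chosen in these data for large change and groups that did not overlap, which favours that outcome. The filter removed none of the 22731 peaks, so the setting without it repeated the main fit. Halved counts nearly keep the ratios between libraries, so these settings add little to the 392.

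Leaving out 1 library gave, off chromosome 5, 12.7% to 14.96% higher, 24.2% to 26.3% lower and medians of -0.07 to -0.05, and on it 8.82% to 11.8%, 72.1% to 76.5% and -0.33 to -0.30. The narrower median was 0.0024 to 0.011. With the replicate number as a block, 76 broad peaks off chromosome 5 were higher and 157 lower, and 8 and 52 on it. All 281 calls were kept. The correlation of deviations between same-numbered libraries over broad peaks was -0.012, 0.017 and 0.215. Depth, at a median standard error of 0.062 on the log2 scale for broad peaks off chromosome 5, limits what can be called.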
